A study of Homo sapiens with 6 samples.

Results

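The butyrylcholinesterase gene BCHE was examined together with the acetylcholinesterase gene ACHE and other cholinergic genes in the prostate cancer cell line C4-2B and in its cabazitaxel (CBZ)-resistant subclone RC4-2B. These are 10 of the 58735 genes in the deposited tables, matched by gene name. BCHE was selected on its rise in RC4-2B, so its own difference between the cell lines is given as a description without a test. ACHE, PRIMA1, COLQ, CHAT, CHRM1, CHRM3, CHRNA5, CHRNA7 and CHRNB1 were chosen by their function to be read beside it.

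RNAseq was done on 3 libraries of C4-2B and 3 libraries of RC4-2B, which the authors label as biological replicates. RC4-2B was derived from C4-2B by repeated exposure to CBZ, a taxane that blocks mitosis, at concentrations raised from 0.1 nM to 20 nM over 4 months, and is 1 subclone. The comparison is therefore between a parental line and a single derived line, and effects of CBZ and differences between clones cannot be told apart. All cells were grown for 72 h before RNA was isolated, and no CBZ is named for that culture. The labels give 10% fetal bovine serum, and the methods of the study name both 10% charcoal-stripped and 10% fetal bovine serum for it. C4-2B is an androgen-independent derivative of LNCaP cells.

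The libraries held 15707134 to 18052517 counts, so that 3 counts, the upper limit that a count of 0 allows, correspond to 0.170 to 0.188 CPM (counts relative to the TMM-scaled library total). These limits cover counting error only. Of 15054 genes tested with edgeR's quasi-likelihood test, 298 (1.98%) had an adjusted p-value under 0.05, 162 of them (1.08%) higher and 136 (0.903%) lower in RC4-2B. RC4-2B replicate 2 stood apart from the others. The SD of its log2 difference from the other RC4-2B libraries across genes was 0.632 and 0.556, against 0.168 to 0.247 for all other pairs within a cell line, and its difference from RC4-2B replicate 1 followed the GC content of genes (Spearman's rho across genes 0.746, a description). Without it, 1925 of 15378 genes tested (12.5%) passed the same threshold. ABCB1, which encodes the drug efflux pump studied in these cells, had 0, 1 and 0 counts in C4-2B against 10742, 15948 and 13179 in RC4-2B.

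Acetylcholine is made from choline and acetyl-CoA by choline acetyltransferase, is packed into vesicles, and acts on muscarinic receptors, which signal through G proteins, and on nicotinic receptors, which are pentameric ion channels. Acetylcholinesterase ends the signal by hydrolysing acetylcholine, and butyrylcholinesterase hydrolyses acetylcholine as well as many other esters, among them drugs and the acyl group of ghrelin. Prostate epithelium and stroma receive cholinergic nerves, and muscarinic receptors are known in both.

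BCHE was the highest of the 10 genes in RC4-2B and was low to moderate in C4-2B. It had 43, 93 and 169 counts in C4-2B against 908, 1369 and 1276 counts in RC4-2B. The groups did not overlap, and every RC4-2B library was above the highest C4-2B library. The mean level was 5.82 ± 3.56 CPM in C4-2B against 69.9 ± 11.5 CPM in RC4-2B (SD, n = 3 each). The fitted log2 fold change was 3.58 (SE 0.40), which is 12.0-fold, and it was 3.49 without RC4-2B replicate 2. Under all alternatives run it lay between 3.07 and 4.15. The highest value was reached without C4-2B replicate 3, the C4-2B library with the most BCHE.

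BCHE (ENSG00000114200) lies on the minus strand at chr3:165772904-165837472 (GRCh38), and no other gene of the deposited table overlaps it. In GENCODE release 44 the span of LINC01322 on the opposite strand covers BCHE, but the span deposited for LINC01322 ends before it, and that gene had 2, 0 and 0 counts in C4-2B against 2, 0 and 0 in RC4-2B. The sequence around the start of BCHE is printed here because BCHE carries the difference described above, from 250 bases before to 50 bases after its RefSeq start (GRCh38.p14, chr3:165837374-165837673, minus strand). CG, the dinucleotide that is methylated in human DNA and reads the same on both strands, is in capitals.
BCHE: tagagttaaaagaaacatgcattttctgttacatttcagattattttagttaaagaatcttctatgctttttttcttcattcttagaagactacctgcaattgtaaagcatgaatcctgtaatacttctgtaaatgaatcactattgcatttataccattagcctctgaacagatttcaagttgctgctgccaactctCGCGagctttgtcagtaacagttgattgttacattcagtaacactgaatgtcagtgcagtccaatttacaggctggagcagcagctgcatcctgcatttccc
The window held 2 CG and was 36.7% G or C. Among 35116 RefSeq windows of 300 bases placed in the same way the median was 14 CG, and 18.2% of them held as few as that of BCHE or fewer. Methylation was not measured in these cells.

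BCHE also varied among the C4-2B libraries. Its highest and lowest log2 CPM in C4-2B differed by 1.86, or 3.63-fold, which was the fifth widest range (rank 5) among 12575 tested genes whose average log2 CPM was 1 or more. The median gene varied 1.14-fold. In the same C4-2B libraries ABCB1 was at 0 or 1 counts, and the C4-2B library with the most BCHE held no ABCB1 read. The cause of the spread of BCHE was not tested. In RC4-2B the range of BCHE was 0.46 on the log2 scale, beside a median of 0.47 over the same genes.

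**Figure D1:**
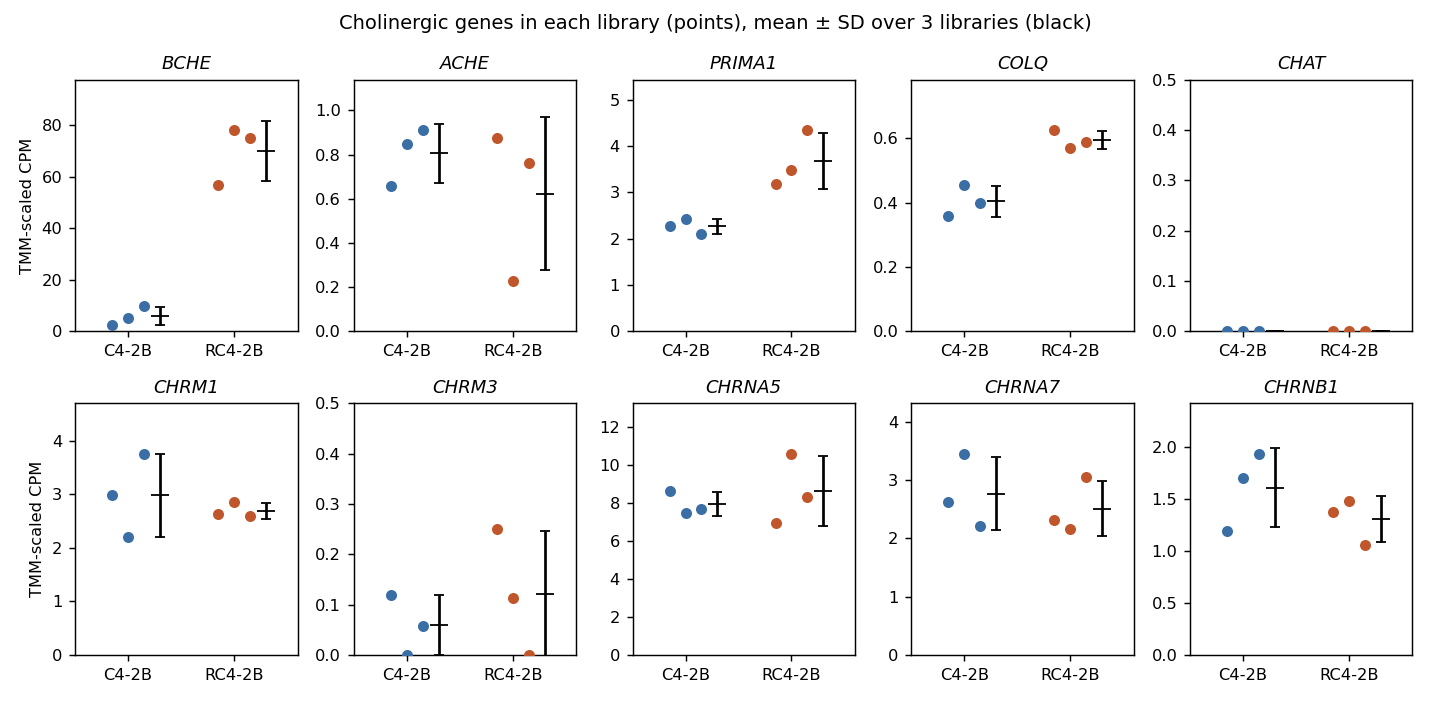
TMM-scaled CPM of the 10 genes in each library of C4-2B and RC4-2B (points) with the mean and SD over 3 libraries (black); each panel has its own vertical axis. BCHE was 2.57 to 9.62 CPM in C4-2B and 56.8 to 78.0 CPM in RC4-2B, PRIMA1 was the only other tested gene whose groups did not overlap, and CHAT was at 0 throughout.

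ACHE, the cholinesterase of neuromuscular and other cholinergic synapses, was near the limit of detection in both cell lines. It had 11, 15 and 16 counts in C4-2B against 14, 4 and 13 in RC4-2B. The groups overlapped, and RC4-2B replicate 2 was lowest. ACHE was 0.806 ± 0.133 CPM in C4-2B against 0.622 ± 0.346 CPM in RC4-2B (SD over 3 libraries). This is a log2 fold change of -0.38 (SE 0.48, 95% interval -1.49 to 0.73, adjusted p = 0.64 by edgeR). Without RC4-2B replicate 2 the log2 fold change was 0.020, so its sign rested on that library. The interval leaves room for a change of either sign, and at this depth no difference of ACHE was detectable.

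Per length, BCHE exceeded ACHE in every library. As a share of the summed FPKM of both cholinesterases, BCHE made up 82.8%, 88.4% and 92.8% in the C4-2B libraries and 98.8%, 99.8% and 99.2% in the RC4-2B libraries. These shares are a description, since they hold the same counts on which BCHE was chosen. They rest on 4 to 16 ACHE counts per library.

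PRIMA1 and COLQ encode the proteins that tether cholinesterase tetramers, PRIMA1 to the membrane of neurons and COLQ to the basal lamina of muscle. PRIMA1 had 38, 43 and 37 counts in C4-2B against 51, 61 and 74 in RC4-2B. All RC4-2B libraries were above all C4-2B libraries, which also held for 17% of the genes tested, and in either direction the groups did not overlap for 34.1%. PRIMA1 was 2.27 ± 0.164 CPM in C4-2B against 3.67 ± 0.603 CPM in RC4-2B, with a log2 fold change of 0.69 (SE 0.23, 95% interval 0.17 to 1.21) that did not pass the threshold (unadjusted p = 0.0147, adjusted p = 0.15 by edgeR). Its adjusted p was 0.072 by edgeR without RC4-2B replicate 2.

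COLQ had 6, 8 and 7 counts in C4-2B and 10 in each RC4-2B library, too few to pass the filter. With no filter on low counts its log2 fold change was 0.54 (SE 0.56, adjusted p = 0.64 by edgeR). COLQ shares 503 bases with EAF1 on the opposite strand, a gene of up to 1023 counts, and reads of the overlap cannot be assigned where the treatment of strand is not given.

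CHAT, choline acetyltransferase, had no count in any of the 6 libraries. SLC18A3, the vesicular acetylcholine transporter encoded inside the CHAT locus, and SLC5A7, the high-affinity choline transporter of cholinergic neurons, were also at 0 counts in all 6 libraries. These zeros allow up to 3 counts per library. Of the 7 genes listed for synthesis, storage and breakdown of acetylcholine, 3 passed the filter, and neither ACHE nor PRIMA1 passed the threshold.

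The muscarinic receptors were low. CHRM1, the M1 receptor, had 50, 39 and 66 counts in C4-2B against 42, 50 and 44 in RC4-2B. The groups overlapped, at 2.98 ± 0.775 CPM in C4-2B against 2.69 ± 0.143 CPM in RC4-2B, and the log2 fold change was -0.15 (SE 0.26, 95% interval -0.73 to 0.43, adjusted p = 0.74 by edgeR). An antisense gene, AP000438.1, overlaps CHRM1 over 8816 bases and held up to 23 counts. CHRM3, the M3 receptor that drives contraction of smooth muscle and secretion from glands, had 2, 0 and 1 counts in C4-2B against 4, 2 and 0 in RC4-2B and was not tested. CHRM2 was at 0 counts throughout, CHRM4 had at most 5 counts and CHRM5 at most 2 counts in a library.

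CHRNA5 encodes the accessory alpha5 subunit of nicotinic receptors and was the highest of the chosen receptor genes. It had 145, 132 and 135 counts in C4-2B against 111, 186 and 142 in RC4-2B. RC4-2B held both the lowest and the highest of these values. CHRNA5 was 7.94 ± 0.628 CPM in C4-2B against 8.63 ± 1.85 CPM in RC4-2B, with a log2 fold change of 0.12 (SE 0.20, 95% interval -0.33 to 0.57, adjusted p = 0.72 by edgeR). It was -0.052 without RC4-2B replicate 2, the library with the most CHRNA5.

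The neighbours of CHRNA5 on chromosome 15 were read beside it, because CHRNA5 shares 2218 bases with CHRNA3 on the opposite strand. An antisense gene, AC027228.2, overlaps CHRNA5 over 2154 bases and held up to 61 counts. Reads of either overlap cannot be assigned where the treatment of strand is not given, so a part of the CHRNA5 counts is uncertain. CHRNA3 had at most 27 counts, with a log2 fold change of 0.12 (adjusted p = 0.89 by edgeR), and CHRNB4 had at most 4 counts. The proteasome subunit gene PSMA4 and the iron regulatory gene IREB2 had log2 fold changes of 0.43 and 0.34, and neither passed the threshold (adjusted p = 0.14 and 0.20 by edgeR). CHRNB4 was not tested.

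CHRNA7 and CHRNB1 encode the alpha7 subunit, which forms receptors by itself, and the beta1 subunit of the muscle receptor. CHRNA7 had 44, 61 and 39 counts in C4-2B against 37, 38 and 52 in RC4-2B. The groups overlapped, with a log2 fold change of -0.14 (SE 0.27, 95% interval -0.75 to 0.47, adjusted p = 0.77 by edgeR). CHRFAM7A, a partial copy that shares sequence with CHRNA7, had 5 to 14 counts, so a part of the CHRNA7 counts is uncertain. CHRNB1 had 20, 30 and 34 counts in C4-2B against 22, 26 and 18 in RC4-2B, and its log2 fold change was -0.30 (SE 0.31, 95% interval -1.01 to 0.40, adjusted p = 0.56 by edgeR).

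Of the 10 genes, 7 passed the filter on low counts, and 6 remain to be read once BCHE, the gene chosen for its rise, is set aside. None of these 6 passed the threshold in edgeR, beside 1.98% of all genes, or in DESeq2, beside 5.7% of all genes. The 1 of them with an unadjusted p under 0.05 in edgeR was PRIMA1, beside 21.4% of all genes. Their median log2 fold change was -0.14, beside 0.0063 over all genes tested. None of these 6 passed the adjusted threshold under any alternative run.

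Compared per length, the order of the genes differed between the cell lines at its top. In C4-2B the highest mean FPKM was that of CHRNA5 (1.96 ± 0.155), followed by BCHE (1.69 ± 1.05) and CHRM1 (0.823 ± 0.219), and the values of BCHE overlapped those of both. PRIMA1, CHRNB1 and ACHE followed at 0.522, 0.333 and 0.191 FPKM without overlap between neighbours in this order. CHRNA7 and COLQ, at 0.118 and 0.0865 FPKM, overlapped, and CHRM3 and CHAT were lowest. In RC4-2B BCHE was first at 20.7 ± 3.77 FPKM, and CHRNA5 was next at 2.18 ± 0.519 FPKM with no overlap. PRIMA1 (0.860 FPKM) and CHRM1 (0.754 FPKM) overlapped each other, as did ACHE, COLQ and CHRNA7 from one to the next, at 0.149, 0.130 and 0.109 FPKM.

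The genes around BCHE were examined next, since 4 of them moved in the direction of BCHE. The number of them past the threshold is therefore a description and not a test of the neighbourhood. Within 5 Mb of the start of BCHE the table lists 110 genes, BCHE included, of which 70 had no count in any library, and 19 besides BCHE were tested. Of these 19, 4 passed the threshold, all higher in RC4-2B, beside 1.08% of all genes. The median log2 fold change of the 19 was 0.15. SI and ZBBX, which are among the 4, had 3 to 18 and 1 to 7 counts in C4-2B. They passed the filter on low counts only through RC4-2B, where they are high, so their adjusted p-values below are a description. On the whole of chromosome 3, 14 of 839 tested genes other than BCHE were higher and 5 lower, with a median of 0.079. The starts of the 4 genes lie between -0.759 Mb (towards lower coordinates) and 1.898 Mb from that of BCHE, a span in which 5 genes besides BCHE were tested.

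SLITRK3, a transmembrane protein of synapses, starts at -0.640 Mb from BCHE, at chr3:165186720-165197109 on the same strand. It had 39, 60 and 85 counts in C4-2B against 204, 290 and 274 in RC4-2B. The groups did not overlap, and the mean level rose from 3.52 ± 1.26 to 15.1 ± 2.07 CPM. The log2 fold change was 2.10 (SE 0.26, adjusted p = 0.00887 by edgeR), and the adjusted p was 0.060 without C4-2B replicate 2.

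SI, the sucrase-isomaltase of the intestinal brush border, lies beyond it on that side at chr3:164978898-165078495. It had 3, 8 and 18 counts in C4-2B against 54, 97 and 78 in RC4-2B. Its level rose from 0.552 ± 0.432 to 4.50 ± 1.08 CPM, with a log2 fold change of 3.00 (SE 0.47, adjusted p = 0.021 by edgeR). BCHE, SI and SLITRK3 were lowest in replicate 1 and highest in replicate 3 of C4-2B. The same order was found, over smaller ranges, in SERPINI1 and PDCD10. The range of SI within C4-2B was rank 4 among the 12575 genes. That rank rests on 3 to 18 counts, and SI reached the average log2 CPM of 1 only through its level in RC4-2B. SI missed the threshold without C4-2B replicate 1 (adjusted p = 0.096 by edgeR), C4-2B replicate 2 (0.117) or RC4-2B replicate 3 (0.081).

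On the other side, ZBBX, a zinc finger B-box domain gene at chr3:167240287-167381346, had 5, 1 and 7 counts in C4-2B against 24, 30 and 29 in RC4-2B. It rose from 0.251 ± 0.176 to 1.64 ± 0.119 CPM, with a log2 fold change of 2.68 (SE 0.49, adjusted p = 0.033 by edgeR). SERPINI1, which encodes neuroserpin, an inhibitor of tissue plasminogen activator, had 14, 17 and 17 counts in C4-2B against 42, 52 and 55 in RC4-2B. It rose from 0.922 ± 0.075 to 2.94 ± 0.303 CPM, with a log2 fold change of 1.67 (SE 0.25, adjusted p = 0.019 by edgeR). Unlike BCHE, SERPINI1 differed little among the C4-2B libraries, with a range of 1.14-fold. ZBBX and SERPINI1 each missed the threshold without any 1 of the C4-2B libraries or without RC4-2B replicate 3 (adjusted p of 0.104 to 0.188 and 0.083 to 0.136 by edgeR). Without RC4-2B replicate 2 all 4 genes passed it, with adjusted p of 4.66e-05 for SLITRK3, 0.00057 for SI, 0.0031 for SERPINI1 and 0.0045 for ZBBX by edgeR.

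PDCD10, an adaptor protein gene mutated in cerebral cavernous malformations, is the fifth tested gene of the span and starts 304 bases from SERPINI1 on the opposite strand. It had 818, 874 and 893 counts in C4-2B against 689, 868 and 873 in RC4-2B. The groups overlapped, at 49.7 ± 1.03 and 48.0 ± 4.31 CPM, and the log2 fold change was -0.052 (SE 0.12, 95% interval -0.32 to 0.21, adjusted p = 0.80 by edgeR). The upper bound of that interval is below the lower bound of the interval of SERPINI1, which was 1.08. GOLIM4, the first tested gene beyond SERPINI1, had a log2 fold change of 0.15 (adjusted p = 0.43 by edgeR). The span was drawn from the first to the last gene past the threshold, so the 14 tested genes outside it could not include one. They ranged from a log2 fold change of -0.72 for LRRC31 to 0.70 for GPR160, and GPR160 passed the threshold when no filter on low counts was used.

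The windows around the starts of SLITRK3, SERPINI1 and PDCD10 are printed for comparison with that of BCHE, SERPINI1 and PDCD10 because they start close together and had different fold changes. They lie at chr3:165197060-165197359 (minus strand), chr3:167735471-167735770 (plus strand) and chr3:167734843-167735142 (minus strand) in GRCh38.p14, with CG in capitals. RefSeq windows were found for BCHE and for these and the other 2 genes named above, 6 of 6. The RefSeq starts of SERPINI1 and ZBBX are 478 and 1049 bases from the deposited ones.
SLITRK3: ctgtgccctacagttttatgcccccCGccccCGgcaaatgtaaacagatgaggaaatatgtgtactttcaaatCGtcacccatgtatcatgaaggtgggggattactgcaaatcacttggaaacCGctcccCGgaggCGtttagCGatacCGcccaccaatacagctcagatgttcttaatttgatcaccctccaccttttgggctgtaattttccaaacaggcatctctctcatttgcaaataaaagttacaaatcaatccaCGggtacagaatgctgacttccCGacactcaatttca
SERPINI1: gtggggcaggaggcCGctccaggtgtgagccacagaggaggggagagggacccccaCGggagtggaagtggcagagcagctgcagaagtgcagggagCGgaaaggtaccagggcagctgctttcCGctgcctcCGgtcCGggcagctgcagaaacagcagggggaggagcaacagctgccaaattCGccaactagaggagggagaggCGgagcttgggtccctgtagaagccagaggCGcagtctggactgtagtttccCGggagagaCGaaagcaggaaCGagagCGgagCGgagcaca
PDCD10: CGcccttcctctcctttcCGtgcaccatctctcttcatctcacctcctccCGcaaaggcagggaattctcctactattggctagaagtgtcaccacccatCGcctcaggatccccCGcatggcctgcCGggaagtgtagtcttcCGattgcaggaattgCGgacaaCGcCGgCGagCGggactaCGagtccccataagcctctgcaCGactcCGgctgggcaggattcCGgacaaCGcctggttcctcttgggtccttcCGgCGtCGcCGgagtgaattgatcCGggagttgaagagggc
SLITRK3 held 10 CG, SERPINI1 14 and PDCD10 22. The window of SI held 0 and that of ZBBX 17. The 5 genes higher in RC4-2B, BCHE included, thus ranged from 0 to 17 CG, on both sides of the median of 14 over all windows.

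**Figure D2:**
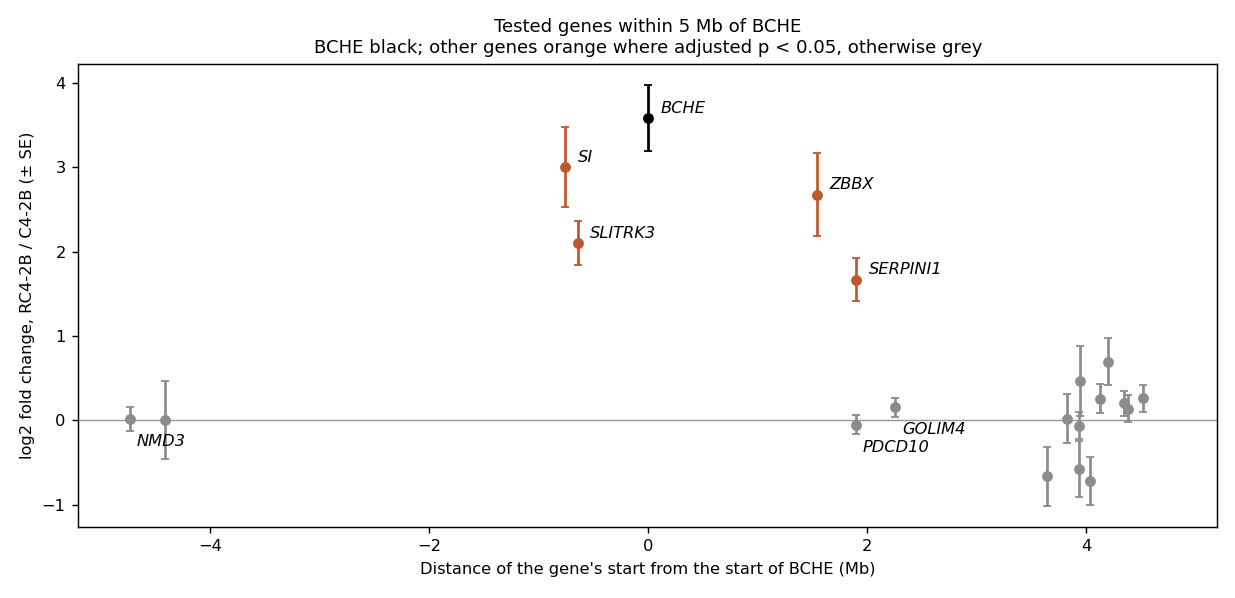
Fitted log2 fold change of RC4-2B over C4-2B (vertical axis, bars are SE) for BCHE and the 19 other tested genes that start within 5 Mb of it, by distance of their starts in Mb (horizontal axis). The 4 genes past the threshold (orange) lie between -0.759 and 1.898 Mb, and PDCD10, in the same span, is at -0.052.

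Among 12574 other tested genes whose average log2 CPM was 1 or more, the pattern most like that of BCHE over the 6 libraries was that of SLITRK3 (Pearson's r of log2 CPM 0.9994). DUSP3, INTU, YEATS2 and AC090204.1 followed with r of 0.998, 0.997, 0.997 and 0.997. SI was rank 9 with 0.995 and SERPINI1 rank 65 with 0.976. The libraries form 2 groups, so these values mostly describe the difference between the cell lines, and they are given without a test. The differences of the 4 genes that followed SLITRK3 were smaller than that of BCHE, with log2 fold changes of 0.44 for DUSP3, 0.70 for INTU, 0.35 for YEATS2 and 1.08 for AC090204.1, and none had an adjusted p under 0.05 in edgeR.

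The wider lists hold 84 genes. They are genes of acetylcholine metabolism, acetylcholine receptors, receptor chaperones, Gq signalling, choline use and the family of cholinesterase-like proteins. Ghrelin, its receptor and its acyltransferase are also among them. All 84 are in the table, 13 of them with no count in any library, and 50 were tested. Besides BCHE, 1 gene passed the threshold, GRK2, beside 1.98% of all genes in either direction and 0.903% lower in RC4-2B. The median log2 fold change of the 49 tested genes other than BCHE was 0.071. At an unadjusted p under 0.05 there were 10 of the 49, beside 21.4% of all genes, and DESeq2 called 3 of them (GRK2, GNAQ and NLGN4X), beside 5.7% of all genes, so these counts are near the background.

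Of 16 nicotinic subunit genes 6 were tested, with a median log2 fold change of -0.010 and none past the threshold in edgeR, at an unadjusted p under 0.05 or in DESeq2. CHRNA2, the alpha2 subunit, was the highest of the 16, with 335, 339 and 448 counts in C4-2B against 389, 432 and 444 in RC4-2B. Its mean was 3.82 FPKM in C4-2B and 4.50 FPKM in RC4-2B, and its log2 fold change of 0.21 (SE 0.15, adjusted p = 0.40 by edgeR) was the most positive of the list. That of CHRNA10, the alpha10 subunit of hair cells, was the most negative at -0.61 (SE 0.42, adjusted p = 0.39 by edgeR).

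Of 12 chaperones and clustering proteins of nicotinic receptors 7 were tested and none passed the threshold in edgeR or DESeq2. LYPD6, a membrane-anchored modulator of nicotinic receptors, had 34, 19 and 32 counts in C4-2B against 57, 42 and 54 in RC4-2B. Its log2 fold change of 0.89 (SE 0.31) was the most positive, and it was the 1 gene of the list with an unadjusted p under 0.05 (adjusted p = 0.16 by edgeR, 0.034 without RC4-2B replicate 2). The most negative was that of DOK7, an adaptor of the neuromuscular junction, at -0.58 (adjusted p = 0.42 by edgeR).

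Below the M1, M3 and M5 receptors, which couple to Gq, 13 of 16 signalling genes were tested, with a median log2 fold change of 0.11. At an unadjusted p under 0.05 in edgeR there were 5 (GNA11, GNAQ, GRK2, GRK3 and RGS2), beside 21.4% of all genes. DESeq2 called 2 (GNAQ and GRK2), beside 5.7% of all genes. GNA11 and RGS2 had log2 fold changes of -0.44 and -0.56 (adjusted p = 0.23 and 0.20 by edgeR). GRK2, a kinase that phosphorylates activated G protein-coupled receptors and so ends their signal, had 7219, 7071 and 7004 counts in C4-2B against 3825, 2840 and 3995 in RC4-2B. It fell from 410 ± 18.02 to 212 ± 43.4 CPM, with a log2 fold change of -0.95 (SE 0.15, 95% interval -1.31 to -0.60, adjusted p = 0.024 by edgeR). RC4-2B replicate 2 was lowest, and without it the log2 fold change was -0.79 (adjusted p = 1.41e-05 by edgeR). With the GC correction the log2 fold change of GRK2 was -0.63 (adjusted p = 0.0027 by edgeR), the smallest fall among the alternatives. The call was lost without any 1 of the C4-2B libraries (adjusted p of 0.106 to 0.149 by edgeR) or without RC4-2B replicate 3 (0.071), with the direction kept.

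GNAQ, the Gq alpha subunit itself, had 263, 333 and 378 counts in C4-2B against 424, 830 and 542 in RC4-2B. The RC4-2B libraries were all higher, with RC4-2B replicate 2 the highest. Its log2 fold change of 0.91 (SE 0.23) missed the threshold (adjusted p = 0.081 by edgeR), which it passed without RC4-2B replicate 2 at 0.64 (adjusted p = 0.0065 by edgeR). GRK3, the kinase closest to GRK2, had a log2 fold change of 0.55 (adjusted p = 0.11 by edgeR), and 0.43 without RC4-2B replicate 2 (adjusted p = 0.025 by edgeR).

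**Figure D3:**
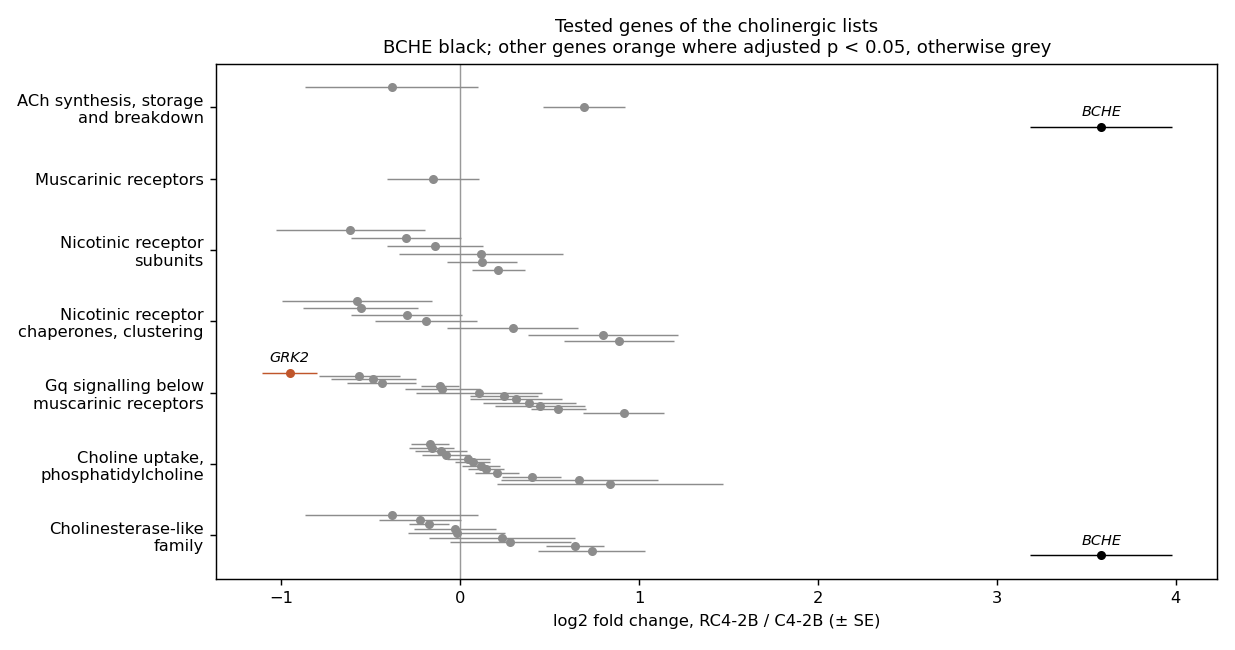
Fitted log2 fold change of RC4-2B over C4-2B (horizontal axis, bars are SE) for every tested gene of the cholinergic lists, 1 line per list. BCHE (black), chosen for its rise, is at 3.58, GRK2 (orange) at -0.95 is the gene past the threshold among the others, and the rest lie between -0.61 and 0.91.

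Among 14 genes of choline uptake and phosphatidylcholine synthesis 12 were tested, with a median log2 fold change of 0.095, and none passed the threshold in edgeR or DESeq2. SLC44A1, a choline transporter, was the 1 gene with an unadjusted p under 0.05. The most positive log2 fold change was that of the choline kinase CHKB, at 0.84 (SE 0.63, adjusted p = 0.43 by edgeR) on 3 to 15 counts, and the most negative that of the transporter SLC44A4, at -0.17 (SE 0.11, adjusted p = 0.37 by edgeR).

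The cholinesterase-like family shares a fold of alpha/beta hydrolases and includes carboxylesterases and neuroligins, which bind partners across the synapse without hydrolysing esters. Of 13 listed genes 10 passed the filter, and none of the 9 besides BCHE passed the threshold in edgeR. NLGN4X, neuroligin 4, had 738, 930 and 878 counts in C4-2B against 1022, 1641 and 1218 in RC4-2B, with a log2 fold change of 0.64 (SE 0.16, adjusted p = 0.082 by edgeR), and 0.47 without RC4-2B replicate 2 (adjusted p = 0.0063 by edgeR). The carboxylesterase gene CES4A had the most positive log2 fold change besides BCHE, at 0.74 (SE 0.30) on 15 to 30 counts. It did not pass the threshold (unadjusted p = 0.0375, adjusted p = 0.21 by edgeR). CES1, the main liver carboxylesterase, was at 0 counts in all libraries. CES2, which hydrolyses other ester drugs, had 865, 891 and 876 counts in C4-2B against 770, 787 and 710 in RC4-2B, with a log2 fold change of -0.17 (SE 0.11, adjusted p = 0.36 by edgeR). Ghrelin and its receptor and acyltransferase (GHRL, GHSR and MBOAT4) were not tested, with at most 10 counts in a library.

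Markers of luminal epithelium and of other cell types were read beside these genes. The 7 markers of prostate luminal epithelium summed to 2488 to 2601 CPM in C4-2B and 2234 to 2385 CPM in RC4-2B, with none at 0. The part of differences in cell type in these results was not tested. The 6 fibroblast markers summed to 24.5 to 27.9 and 26.8 to 41.3 CPM, with COL1A2, DCN and LUM at 0 counts. COL1A1 alone was 21.2 to 25.2 and 22.2 to 36.6 CPM. PDGFRB was 2.095 to 2.86 and 2.62 to 3.25 CPM. COL3A1 was 0.418 to 0.736 and 1.44 to 2.23 CPM, without overlap, on 7 to 38 counts. Its log2 fold change of 1.69 did not pass the threshold (adjusted p = 0.051 by edgeR). The 5 markers of leukocytes and endothelium summed to 7.52 to 8.48 and 3.82 to 5.19 CPM, with PECAM1 at 0 counts. VWF alone was 7.46 to 8.14 and 3.64 to 5.065 CPM. PTPRC, CD3E and CD68 had at most 3, 1 and 5 counts in a library. In bulk RNA, fewer cells that express a gene and less RNA per cell cannot be told apart.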

How the data were processed

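RNAseq counts and FPKM values of 3 C4-2B and 3 RC4-2B libraries were analysed. Reads had been mapped by the authors with STAR to GRCh38. The deposited counts are whole reads per gene without normalization, and the deposited FPKM values divide them by gene length and a library total. How reads were counted, with or without strand, and on which annotation release is not given in the sources used here, so overlapping genes and paralogs carry that uncertainty.

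Counts were fitted across all genes with edgeR 4.0.16 in R 4.3.3 (TMM scaling, filterByExpr with a minimum count of 10, cell line as the sole factor, glmQLFit and glmQLFTest, prior count 0.125), with two-sided tests, Benjamini-Hochberg adjustment and a threshold of 0.05. Every adjusted p-value in the text is from that adjustment. SE was taken as the size of the log2 fold change over the root of F. CPM used the TMM-scaled totals and is given as mean ± SD. The script was tested on simulated data. The alternatives were DESeq2 1.42.0, RLE and upper-quartile scaling, no filter, a mean of at least 10 counts, a prior count of 2, leaving out each library, the replicate number as a block, a window of 1 Mb, limma 3.58.1 on FPKM (log2 scale, pseudocount 1 or 0.1) for genes of at least 0.1 FPKM in 3 libraries, and a GC correction, in which a lowess trend (span 0.2) on the GC content of the longest GENCODE release 44 transcript, known for 99.6% of tested genes, entered edgeR as an offset. Figures were drawn with matplotlib 3.10.9.

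The members, gene lists and tests were chosen with earlier results of these data known. Named genes are the members, genes of the lists other than marker lists that passed the threshold, the extremes of each such list, tested genes within 5 Mb of BCHE by 5' start (of which some are given by range), the neighbours of CHRNA5, CHRFAM7A and the 5 genes most like BCHE. ABCB1, LINC01322, EAF1, AP000438.1, AC027228.2, GRK3, GNA11, RGS2, NLGN4X, CES1, CES2, CES4A, SLC44A1, the named markers and the receptor and transporter genes at or near 0 counts were added after their values were seen. Some marker lists are not reported here. All pairs of libraries within a cell line had a chi-square per gene of 3.94 to 85.1, more than sampling noise gives, and none is a copy. Nothing beyond the label says how the replicates were grown, so p-values measure the spread between these libraries.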

Additional observations from a re-analysis of the deposited data

How the results depend on the processing

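BCHE kept its direction under every alternative, with log2 fold changes of 3.23 to 4.15 when 1 library was left out, 3.38 with the GC correction and 3.71 with the replicate block. The number of genes past the threshold over all genes (298) was 887 in DESeq2, 1250 without a filter, 1147 with the GC correction, 129 with the replicate block, 102 and 98 by limma on log2(FPKM + 1) and log2(FPKM + 0.1), and 44 (without C4-2B replicate 1) to 1925 (without RC4-2B replicate 2) with 1 library left out. Over the wider lists the count of 2, which includes BCHE although it was chosen for its rise, became 4 in DESeq2, 4 without a filter, 5 with the GC correction, 1 and 1 by limma, and 1 to 6 with 1 library left out, 1 without each C4-2B library or RC4-2B replicate 3, 5 without replicate 1 of RC4-2B and 6 without its replicate 2. Among the neighbours of BCHE the count of 4 became 2 with the replicate block (ZBBX and SERPINI1 lost, adjusted p = 0.071 and 0.057 by edgeR), 2 and 2 by limma (SI and ZBBX lost), 5 without a filter (GPR160, at 4.2 Mb, added), 2 in a window of 1 Mb, which holds only SI and SLITRK3 of the 4, and 0 to 4 with 1 library left out, 0 without C4-2B replicate 2, 1 without C4-2B replicate 1 or RC4-2B replicate 3 and 2 without C4-2B replicate 3. GRK2 was also not called by limma (adjusted p = 0.058 and 0.061). The log2 fold change of ACHE was 0.013 with the GC correction and ranged from -0.70 to 0.020 with 1 library left out. Signs that turned without a call were those of CHRM1 (0.22 with the GC correction, -0.33 to 0.048 over the libraries left out, 0.048 without C4-2B replicate 3), CHRNA5 (-0.034 with the GC correction, -0.052, without replicate 2 of RC4-2B, to 0.26), CHRNA7 (-0.31 to 0.051, the latter without C4-2B replicate 2) and PDCD10 (-0.10 to 0.023, the latter without RC4-2B replicate 1). The causes were not tested.

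Replicate numbers are shared between the cell lines, and the deviations of same-numbered libraries correlated at 0.31, 0.18 and -0.073 over 11259 genes. For replicates 1 and 2 the same-numbered library was the best match in both directions, and for replicate 3 it was not. Whether the numbers mark pairs is thus not settled. They were left out of the main fit and entered as a block in an alternative. With 3 libraries a group, changes of genes near 3 counts, such as CHRM3 and CHAT, are not detectable, COLQ was below the filter, and the intervals of ACHE, CHRM1, CHRNA5, CHRNA7 and CHRNB1 do not show that these genes were alike in both lines.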
